A study of Mus musculus with 45 samples.

Results

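Forelimb buds of gestation day 13 CD1 mouse embryos were followed through their first day in culture while exposed to 5 µM bisphenol AF (BPAF), which is the hexafluoro analog of the plastics monomer bisphenol A. The comparison sets 5 libraries taken at 24 h against 5 taken at 3 h, both with 5 µM BPAF, which is 10 of the 45 messenger RNA libraries of the series. Libraries were chosen by their labels alone. The 3 h buds had themselves been exposed for 3 h, so they are an early time and not an unexposed start. The question is which developmental changes still took place in exposed limbs. Buds held for 24 h or 3 h with 1 µM BPAF, and buds held for 24 h or 3 h with the solvent DMSO as control, gave the same comparison at lower doses, again with 5 libraries each. Limbs of male and female embryos are described as cultured together in bottles, although some 3 h libraries held almost no Y-linked reads, as given below. The labels do not say whether replicates came from separate days or dams. The p-values therefore measure the spread between libraries, which may in part be technical.

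At this stage mesenchymal cells of the limb have condensed into cartilage models, whose chondrocytes secrete a matrix of type II collagen and aggrecan. Chondrocytes in the middle of each model then stop dividing, enlarge and turn on type X collagen and genes of mineral matrix. Muscle precursors that migrated from the somites withdraw from the cell cycle, fuse and assemble sarcomeres, while transcription factors that patterned the early bud are turned down.

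Levels are CPM, the count of a gene as a share of its library's reads scaled to a common total, after TMM correction for composition. The exposed libraries expressed the limb mesenchyme gene Prrx1 at 372 to 529 CPM and the forelimb factor Tbx5 at 268 to 309 CPM, while the hindlimb factor Pitx1 lay at 2.36 to 7.84 CPM. Read totals of the 10 exposed libraries lay between 14901842 and 20800285. Of each of the 9 groups of the series, 1 library held transcripts of small-intestine absorptive cells. The sum of 12 such genes, chosen after the data were seen, was 124 to 349 CPM in those 9 libraries and 1.99 to 5.70 CPM in the other 36. Among exposed limbs they were replicate 5 at 24 h and replicate 1 at 3 h. In control and 1 µM limbs they were replicate 1 at 24 h and at 3 h, and at 48 h replicate 5 in every group. Results are given with and without these libraries where they rest on them.

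In exposed limbs, the transcriptome changed broadly over the first day. Of 16621 genes tested, 5769 (34.7%) were called between 24 h and 3 h at an edgeR adjusted p under 0.05, of which 2879 (17.3%) were higher and 2890 (17.4%) lower at 24 h. At least 2-fold rises numbered 440 (2.65%) and at least 2-fold falls 590 (3.55%). In whole limbs, fewer cells of a type and less RNA per cell cannot be told apart. The rises with the largest folds included the mineral matrix gene Ibsp, the macrophage gene Gpnmb (log2 change 5.01) and the secreted protein gene Clec3b (3.24). The falls included the endothelial diaphragm gene Plvap (-2.87), the apelin receptor gene Aplnr (-2.85), the surface epithelial gene Ovol1 (-2.73) and the mast cell gene Cpa3 (-2.64). Leaving out the 2 exposed libraries with intestinal transcripts gave 6065 calls, and 5187 of the original calls were among them with the same direction.

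Most of these changes also occurred in control limbs, where 6227 of 16481 genes (37.8%) were called, 3147 (19.1%) higher and 3080 (18.7%) lower, and the 2 comparisons share no library. Of 16233 genes tested in both, 4329 were called in both and 4322 of these moved the same way, which is 75.55% of the exposed calls and 69.83% of the control calls. Only 7 genes were called in opposite directions. Across genes, which are not independent replicates, the log2 changes of exposed and control limbs had a Pearson correlation of 0.83. In 1 µM limbs 6587 of 16663 genes (39.5%) were called, 3291 (19.8%) higher. Averaged over exposed and control limbs, 8651 of 17535 genes (49.3%) were called. For 645 of these with a first-day change of at least 1 on the log2 scale averaged over both, the exposed change divided by the control change had a median of 0.966. The median ratio was 0.902 for the 342 rises and 0.99 for the 303 falls. The difference between the exposed and the control change, tested over 20 libraries, was called for 59 of 17535 genes (0.336%), of which 11 (0.0627%) were more positive and 48 (0.274%) more negative in exposed limbs.

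**Figure D1:**
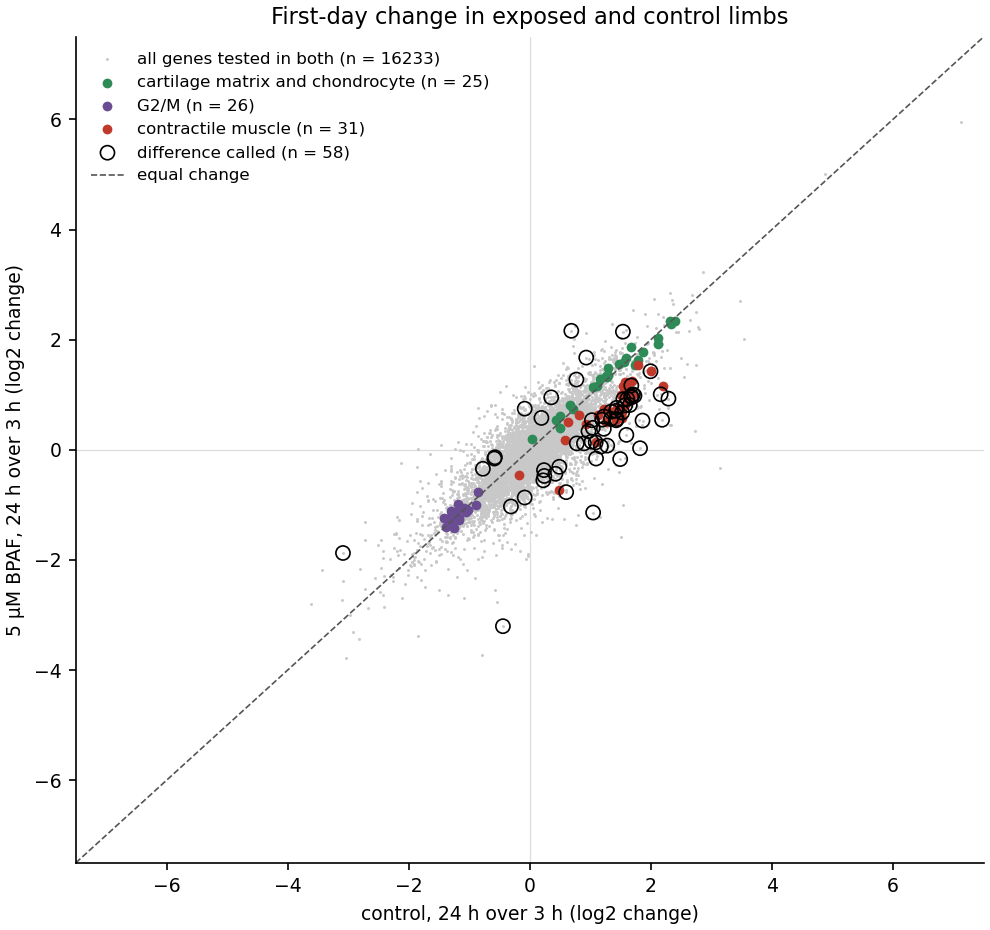
First-day log2 change (24 h over 3 h) of 16233 genes, with limbs in 5 µM BPAF on the vertical axis and control limbs on the horizontal axis. Cartilage and G2/M genes lie along the dashed line of equal change, contractile muscle genes lie mostly below it, and black circles mark 58 of the 59 genes whose difference was called.

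Cartilage genes rose in exposed limbs as a group. Of 25 tested members of the cartilage matrix and chondrocyte list, 25 were higher at 24 h, with a median log2 change of 1.49, beside -0.01 over all genes tested, in exposed as in control limbs. In control limbs 25 of 26 were higher, with a median of 1.38. No member differed between exposed and control limbs in edgeR's test of the difference. At an unadjusted p under 0.05 edgeR gave 2 members, and DESeq2 and limma-voom called 0. The share of all genes at that unadjusted p is not given, here or for the lists below, so such counts have no baseline. Col2a1, which encodes type II collagen, had 6905, 6872, 6423, 6956 and 6765 CPM at 24 h in replicates 1 to 5 of exposed limbs, against 2065, 2229, 2709.7, 2784 and 2228 CPM at 3 h. Every 24 h library lay far above every 3 h library, and the log2 change was 1.49 ± 0.07 (SE, edgeR adjusted p = 1.65e-09), beside 1.30 ± 0.06 in control limbs. The other cartilage collagen genes Col9a2 (1.32) and Col9a3 (1.37), the matrilin gene Matn1 (2.33) and the aggrecan gene Acan (1.55) rose too. Sox9, the transcription factor that starts the chondrocyte programme, rose least among the list's members, by 0.20 ± 0.06 in exposed limbs (edgeR adjusted p = 0.0159), and its change in control limbs was 0.03 ± 0.07 (edgeR adjusted p = 0.731).

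Genes of hypertrophic cartilage and mineral matrix rose as well, and the change of the type X collagen gene was smaller than in control limbs. Of 18 tested hypertrophic genes 14 were higher in exposed limbs (median 0.76), and of 19 tested osteoblast and mineral matrix genes 16 were higher and 1, the homeobox gene Dlx3 (-1.08), lower (median 0.92). In control limbs 12 of 17 (median 0.90) and 17 of 20 (median 0.99) were higher. The lists share several members, among them Ibsp, Sp7 and Runx2. Ibsp, which encodes bone sialoprotein, had 41.7, 14.9, 52.2, 26.7 and 13.9 CPM at 24 h in exposed limbs, against 0.734, 0.0519, 0.354, 1.01 and 0.226 CPM at 3 h. In control limbs it had 156, 104, 144, 99.9 and 94.2 CPM at 24 h, against 0.456, 0.161, 1.51, 1.08 and 1.06 CPM at 3 h. All 24 h libraries stood above all 3 h libraries at both doses, and at 24 h every exposed library lay below every control library. The log2 change was 7.12 ± 0.25 in control, 6.80 ± 0.19 in 1 µM and 5.95 ± 0.49 in 5 µM limbs, and the difference between 5 µM and control was not called (-1.15 ± 0.88, edgeR adjusted p = 0.875).

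Col10a1, which encodes type X collagen and sits at chr10:34389981-34397085 on the plus strand of mm10, changed less in exposed than in control limbs. Exposed limbs had 7.84, 5.71, 6.18, 11.3 and 6.56 CPM at 24 h, against 5.59, 3.84, 4.86, 6.96 and 4.34 CPM at 3 h, and these ranges overlap. Control limbs had 29.97, 16.8, 30.3, 19.8 and 20.1 CPM at 24 h, against 5.98, 5.796, 4.85, 3.13 and 5.72 CPM at 3 h, with no overlap. The change by dose was 2.19 ± 0.19 in control, 1.59 ± 0.17 in 1 µM and 0.55 ± 0.21 in 5 µM limbs, where it missed the threshold (edgeR adjusted p = 0.0502). The 5 µM rise was called in 6 of 9 other settings (adjusted p = 0.0113 to 0.0487, edgeR and DESeq2) and in 4 of 10 edgeR fits that left out 1 library. The difference of -1.63 ± 0.30 was called (edgeR adjusted p = 0.00922) and remained called in each of 20 fits that left out 1 library, but not where all 45 libraries shared 1 fit (-1.64, edgeR adjusted p = 0.372). Regulatory genes of the same programme rose in exposed limbs: Ihh, the hedgehog ligand of prehypertrophic chondrocytes, by 0.97 ± 0.14, the RUNX factors Runx2 by 0.55 ± 0.11 and Runx3 by 0.68 ± 0.10, and Sp7, an osteoblast factor, by 0.92 ± 0.11. In control limbs Ihh rose by 0.90, Runx2 by 0.73, Runx3 by 0.69 and Sp7 by 1.13, and none of these differences was called. The membrane channel gene Panx3 rose by 2.42 and the sphingomyelinase gene Smpd3 by 2.14, each called in control limbs too (2.20 and 2.42). Mmp13, the collagenase of late hypertrophic cartilage, reached 0.648 to 2.505 CPM at 24 h in exposed limbs, against 0 to 0.451 CPM at 3 h, and its difference from control was not called. Tendon and fibrous genes rose in 17 of 22 cases and fell in 1 (median 0.54), led by Aspn (1.58), Thbs2 (1.37) and Ogn (1.30). In the joint interzone list 3 of 14 were higher and 2 lower, a share called (35.71%) near the 34.7% of all genes.

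**Figure D2:**
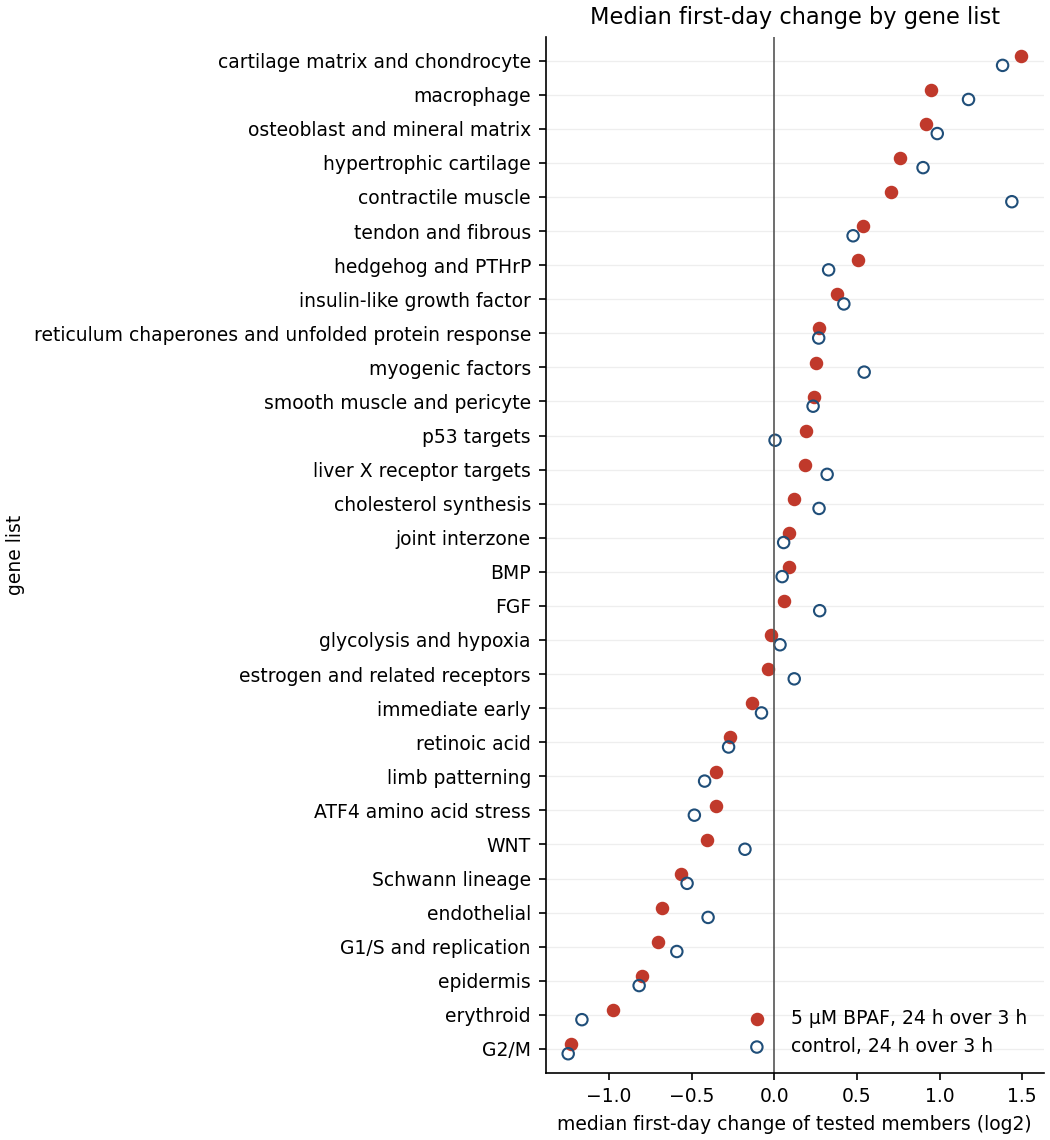
Median log2 change (24 h over 3 h) of the tested members of each of 30 gene lists, with filled points for 5 µM BPAF and open points for control limbs. Most pairs lie close together, and the contractile muscle list stands out with 0.71 in exposed and 1.44 in control limbs.

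Genes that pattern the early bud fell in exposed limbs. Of 38 tested patterning genes 22 were lower and 4 higher (median -0.35), beside 24 lower and 2 higher of 37 in control limbs. Msx2, a homeobox gene of the distal mesenchyme and ectodermal ridge, had 11.9, 8.88, 11.8, 9.505 and 11.7 CPM at 24 h, against 39.5, 42.7, 36.1, 35.8 and 42.8 CPM at 3 h, with every 24 h library below every 3 h library. The falls of Msx2 (-1.88), Msx1 (-1.15), the T-box gene Tbx3 (-0.99) and the LIM homeobox gene Lhx9 (-1.22) were called. The zinc finger gene Sall1 changed by -0.14 ± 0.07 in exposed limbs (edgeR adjusted p = 0.136) and fell by 0.58 ± 0.07 on the log2 scale in control limbs, a difference of 0.45 ± 0.10 (edgeR adjusted p = 0.0417) whose call was lost in 18 of 20 fits that left out 1 library.

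Among signalling genes, those of the hedgehog and PTHrP list mostly rose, in exposed and in control limbs. The counts that follow stand beside 17.3% of all genes called higher and 17.4% called lower in exposed limbs. For control limbs these shares were 19.1% and 18.7%. Of 14 hedgehog and PTHrP genes 11 were higher and 1 lower in exposed limbs (median 0.51), beside 10 higher and 1 lower in control limbs (median 0.33). The pathway targets Gli1 (1.06), Ptch1 (0.96) and Hhip (0.84) were among those higher in exposed limbs. In exposed limbs BMP genes were 10 higher and 6 lower of 23, WNT genes 8 higher and 11 lower of 24, and retinoic acid genes 3 higher and 8 lower of 14. In control limbs the BMP genes were 7 higher and 7 lower, the WNT genes 8 and 11, and the retinoic acid genes 3 and 8. Examples in exposed limbs are a rise of the BMP receptor gene Bmpr1b (0.70), a fall of the WNT effector Lef1 (-1.39), and falls of the retinoic acid degrading enzyme gene Cyp26a1 (-1.75) and the retinol uptake gene Stra6 (-1.68). Of 14 genes of the insulin-like growth factor axis 8 were higher in exposed limbs, including the ligand Igf1 (1.08) and the imprinted RNA H19 (0.85), and 4 lower. In control limbs 10 were higher and 2 lower. EdgeR called no difference between exposed and control limbs in the lists of this paragraph. At an unadjusted p under 0.05 it gave 5 hedgehog and PTHrP, 7 BMP, 4 WNT, 6 retinoic acid and 2 insulin-like growth factor genes. DESeq2 called 1 retinoic acid gene.

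In the FGF list 8 of 18 genes were higher and 4 lower in exposed limbs (median 0.06), beside 11 higher and 1 lower in control limbs (median 0.28). EdgeR's test of the difference called 3 (16.67%, beside 0.336% of all genes), with 10 at an unadjusted p under 0.05. DESeq2 called 6 and limma-voom 3. Fgfr3, a receptor that restrains chondrocyte proliferation, had 288, 304, 252, 296 and 272 CPM at 24 h in exposed limbs, against 106, 116, 127, 119 and 113 CPM at 3 h. Control libraries had 201, 181, 187, 187 and 210.4 CPM at 24 h, against 125, 107, 109.8, 107 and 116 CPM at 3 h. All exposed 24 h libraries stood above all control 24 h libraries, while the 3 h libraries overlapped. The difference was 0.52 ± 0.09 (edgeR adjusted p = 0.00512), and the change at 1 µM was 0.89 ± 0.08. The feedback inhibitor Spry1 fell in exposed limbs (-0.37 ± 0.07) and rose in control limbs (0.23 ± 0.07), a difference of -0.59 ± 0.10 (edgeR adjusted p = 0.00766). Etv5, a transcription factor induced by FGF signalling, rose in both, by 0.54 ± 0.07 in exposed and 1.03 ± 0.06 in control limbs (difference -0.48, edgeR adjusted p = 0.0164). Its call was lost without the libraries holding intestinal transcripts (-0.44, edgeR adjusted p = 0.0716), and that of Fgfr3 where all 45 libraries shared 1 fit (0.51, edgeR adjusted p = 0.067).

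Proliferation genes fell on the first day in exposed limbs. Of 26 G2/M genes 26 were lower at 24 h (median -1.23), beside 26 of 26 in control limbs (median -1.25), and of 28 G1/S and replication genes 27 were lower (median -0.70), beside 26 of 28 (median -0.59). Top2a, the topoisomerase of replicating chromosomes, had 173, 172, 196, 195 and 185 CPM at 24 h, against 427, 471, 409.6, 425 and 453 CPM at 3 h. All 24 h libraries lay below all 3 h libraries, and the log2 change was -1.25 ± 0.06 in exposed and -1.24 ± 0.05 in control limbs. The ribonucleotide reductase gene Rrm1 had 106, 106, 119.7, 107 and 107 CPM at 24 h, against 185, 186, 184, 191 and 203 CPM at 3 h, again without overlap (log2 change -0.80 ± 0.06). Rrm2, its partner subunit, fell by 0.96 on the log2 scale, and the mitotic cyclin gene Ccnb1 by 1.24.

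Because the G2/M genes moved together, their promoters were searched for letters known from cell cycle genes, in 300 bases from 250 before to 50 after the RefSeq gene start (GRCm38.p6), on both strands. The CCAAT box (CCAAT) was held by 19 of 22 G2/M promoters (86.36%) and the cell cycle homology region (TTTGAA) by 17 of 22 (77.27%), beside 38.29% and 11.67% of the 11603 promoters of tested genes. The E2F core (GCGGGAA) was in 10 of 22 G1/S promoters (45.45%), beside 8.33% of all. The CCAAT box was in 14 of the 22 G1/S promoters too (63.64%). The E-box (CANNTG), bound by myogenic helix-loop-helix factors among others, was in 24 of 27 contractile muscle promoters (88.89%), beside 63.66% of all. The promoters of Top2a and Rrm1 are shown because these genes had the smallest p of their lists among members holding the motifs. The promoter of Myh3 is shown because this contractile gene had the smallest p for the difference between exposed and control limbs. Capitals mark CCAAT and TTTGAA in Top2a, GCGGGAA in Rrm1 and CANNTG in Myh3, read on either strand.
Top2a, chr11:99024140-99024439, minus strand: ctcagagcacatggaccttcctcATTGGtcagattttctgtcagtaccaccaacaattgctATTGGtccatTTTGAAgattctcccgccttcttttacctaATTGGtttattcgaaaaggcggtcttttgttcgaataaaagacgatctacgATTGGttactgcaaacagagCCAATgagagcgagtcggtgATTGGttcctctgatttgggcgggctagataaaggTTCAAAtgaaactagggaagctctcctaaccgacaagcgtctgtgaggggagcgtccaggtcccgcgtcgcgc
Rrm1, chr7:102441445-102441744, plus strand: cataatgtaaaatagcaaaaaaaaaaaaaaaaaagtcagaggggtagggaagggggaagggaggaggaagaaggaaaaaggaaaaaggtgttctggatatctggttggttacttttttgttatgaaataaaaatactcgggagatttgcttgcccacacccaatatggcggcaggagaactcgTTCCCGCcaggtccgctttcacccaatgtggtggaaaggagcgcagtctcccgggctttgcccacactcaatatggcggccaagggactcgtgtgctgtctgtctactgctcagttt
Myh3, chr11:67078050-67078349, plus strand: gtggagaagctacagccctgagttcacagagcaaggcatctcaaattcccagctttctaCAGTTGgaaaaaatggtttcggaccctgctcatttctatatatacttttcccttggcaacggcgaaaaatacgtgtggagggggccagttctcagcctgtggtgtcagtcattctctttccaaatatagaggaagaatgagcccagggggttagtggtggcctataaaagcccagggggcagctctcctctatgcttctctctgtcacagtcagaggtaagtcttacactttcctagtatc
The Top2a window holds 6 CCAAT boxes and 2 TTTGAA matches, and the windows of Rrm1 and Myh3 hold 1 match each of their marked motif. CCAAT also occurs in the Rrm1 window, where it is not marked. A match is a description of the letters and says nothing about binding in these limbs.

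Contractile muscle genes rose in exposed limbs, and many rose by less than in control limbs. Of the tested members of this list, 30 of 33 were higher at 24 h in control limbs (median 1.44), 31 of 32 in 1 µM limbs (median 1.46) and 26 of 31 in 5 µM limbs (median 0.71). The summed level of the 34 listed genes was 3686 to 4712 CPM at 24 h and 2189 to 2469 CPM at 3 h in exposed limbs. In control limbs it was 5578 to 6494 CPM at 24 h and 1895 to 2498 CPM at 3 h. The doses thus overlapped at 3 h and separated at 24 h. The 19 members in the ratio above had a median exposed change of 0.581 times the control change, and the 1 µM change was 0.994 times the control change. In the test of the difference 26 of 33 had an unadjusted p under 0.05. EdgeR called 10 (30.3%, beside 0.336% of all genes), all with a lower change in exposed limbs: Acta1, Actc1, Myh3, Myh7, Myh8, Myl1, Mylpf, Tnnt3, Casq2 and Actn2. Of these 10, all but Myh7 still rose by call in exposed limbs. The count of 10 was 6 without replicate 1 and 16 without replicate 5 of the exposed 24 h libraries, 19 with DESeq2, and 13 without the libraries holding intestinal transcripts.

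Myh3, the embryonic myosin heavy chain gene (chr11:67078300-67102291, plus strand, mm10), had 552, 538, 585, 474 and 597 CPM at 24 h in exposed limbs, against 350.4, 366, 407, 397 and 366 CPM at 3 h. Control limbs had 926, 1002, 951, 1001 and 843 CPM at 24 h, against 339.5, 353, 358, 403 and 294 CPM at 3 h. At both doses the times did not overlap, and at 24 h every exposed library lay below every control library. The change was 1.43 ± 0.07 in control, 1.36 ± 0.08 in 1 µM and 0.54 ± 0.07 in 5 µM limbs, and the difference of -0.88 ± 0.10 was called (edgeR adjusted p = 5.75e-05). Acta1, the skeletal muscle actin gene, had 346, 391, 401, 349.8 and 496 CPM at 24 h in exposed limbs, against 150.2, 130.0, 157, 143 and 156 CPM at 3 h. Among control limbs it had 565, 603, 556, 631 and 559.6 CPM at 24 h, against 147, 148, 155, 156 and 122 CPM at 3 h. Exposed limbs thus rose without reaching the control level, with replicate 5 highest, and the difference was -0.56 ± 0.12 (edgeR adjusted p = 0.0327), a call lost in 10 of 20 fits that left out 1 library.

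The difference varied among contractile genes. The slow myosin gene Myh7 (0.13 ± 0.11 in exposed, 1.09 ± 0.10 in control limbs), the troponin gene Tnnt3 (0.68 and 1.53), the fast regulatory light chain gene Mylpf (0.81 and 1.58) and the calcium store gene Casq2 (0.92 and 1.61) all had called differences that held in each of 20 fits leaving out 1 library. Tnnt2, the troponin T of embryonic muscle and heart, had 142, 144, 145, 128 and 182 CPM at 24 h in exposed limbs, against 48.2, 53.1, 49.1, 54.1 and 48.8 CPM at 3 h. The control limbs had 164, 192, 177, 187 and 180.4 CPM at 24 h, against 47.2, 54.1, 57.2, 58.0 and 41.5 CPM at 3 h. The 24 h ranges overlapped through exposed replicate 5, and the difference was not called (-0.24 ± 0.12, edgeR adjusted p = 0.708). The calsequestrin gene Casq1 and the actinin gene Actn3, named here after their values were seen, were the 2 list members called lower at 24 h in exposed limbs (-0.73 and -0.46).

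Outside the list, Myom2, an M-band protein gene, had 18.02, 17.2, 18.7, 20.3 and 19.2 CPM at 24 h in exposed limbs, against 18.6, 17.3, 23.7, 24.7 and 19.5 CPM at 3 h. In control limbs it had 37.97, 45.7, 38.2, 45.1 and 34.4 CPM at 24 h, against 17.9, 17.4, 21.4, 19.5 and 17.5 CPM at 3 h. The exposed times overlapped while the control times did not, and the difference was -1.24 ± 0.14 (edgeR adjusted p = 5.75e-05). Atp1b4, an X-linked gene related to sodium pump beta subunits and expressed in mammalian muscle, fell to 1.198, 0.740, 2.12, 1.32 and 1.64 CPM at 24 h in exposed limbs, against 1.86, 2.75, 3.04, 4.83 and 2.93 CPM at 3 h. In control limbs it rose, with 7.70, 6.704, 6.12, 6.68 and 3.91 CPM at 24 h, against 2.33, 2.15, 3.74, 4.095 and 2.67 CPM at 3 h. All exposed 24 h libraries lay below all control 24 h libraries (difference -2.17 ± 0.38, edgeR adjusted p = 0.00547). The laminin receptor gene Itga7 changed by 1.28 ± 0.15 in control, 0.77 ± 0.15 in 1 µM and 0.08 ± 0.16 in 5 µM limbs (difference -1.19 ± 0.22, edgeR adjusted p = 0.0117). The muscle growth factor gene Fgf6 changed by -0.17 ± 0.22 in exposed and 1.49 ± 0.26 in control limbs, a called difference (-1.65 ± 0.34, edgeR adjusted p = 0.0269) that was lost in 9 of 20 fits leaving out 1 library.

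Regulators of the muscle lineage changed in both directions. Of 17 tested myogenic factors 9 were higher and 3 lower in exposed limbs (median 0.25), beside 11 higher and 2 lower of 18 in control limbs (median 0.54), and edgeR called 0 differences between exposed and control limbs, with 7 at an unadjusted p under 0.05. DESeq2 called 3 and limma-voom 0. Myog, which drives terminal differentiation, rose by 0.55 ± 0.09 in exposed and 0.90 ± 0.07 in control limbs. In exposed and control limbs, the fusion gene Mymk rose by 0.91 and 1.37, and the acetylcholine receptor gene Chrna1 by 1.38 and 1.50. Pax7, the marker of muscle progenitors, had 9.15, 12.2, 11.6, 10.96 and 13.99 CPM at 24 h in exposed limbs, against 17.2, 16.05, 17.4, 15.3 and 17.1 CPM at 3 h. Control libraries had 20.1, 19.7, 16.3, 17.8 and 14.7 CPM at 24 h, against 15.5, 17.9, 18.3, 14.3 and 15.2 CPM at 3 h. The exposed times did not overlap and the fall of -0.52 ± 0.11 was called, whereas the difference from control was not (-0.62 ± 0.15, edgeR adjusted p = 0.0801). That difference was called in 2 of 20 fits that left out 1 library and in 2 of 10 other settings. The 2 fits left out replicate 5 of the exposed or of the control 24 h libraries (edgeR adjusted p = 0.0191 and 0.0245). The 2 settings were DESeq2 (adjusted p = 0.0129) and leaving out both of these libraries, the 24 h libraries highest in haemoglobin (edgeR adjusted p = 0.00587).

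**Figure D3:**
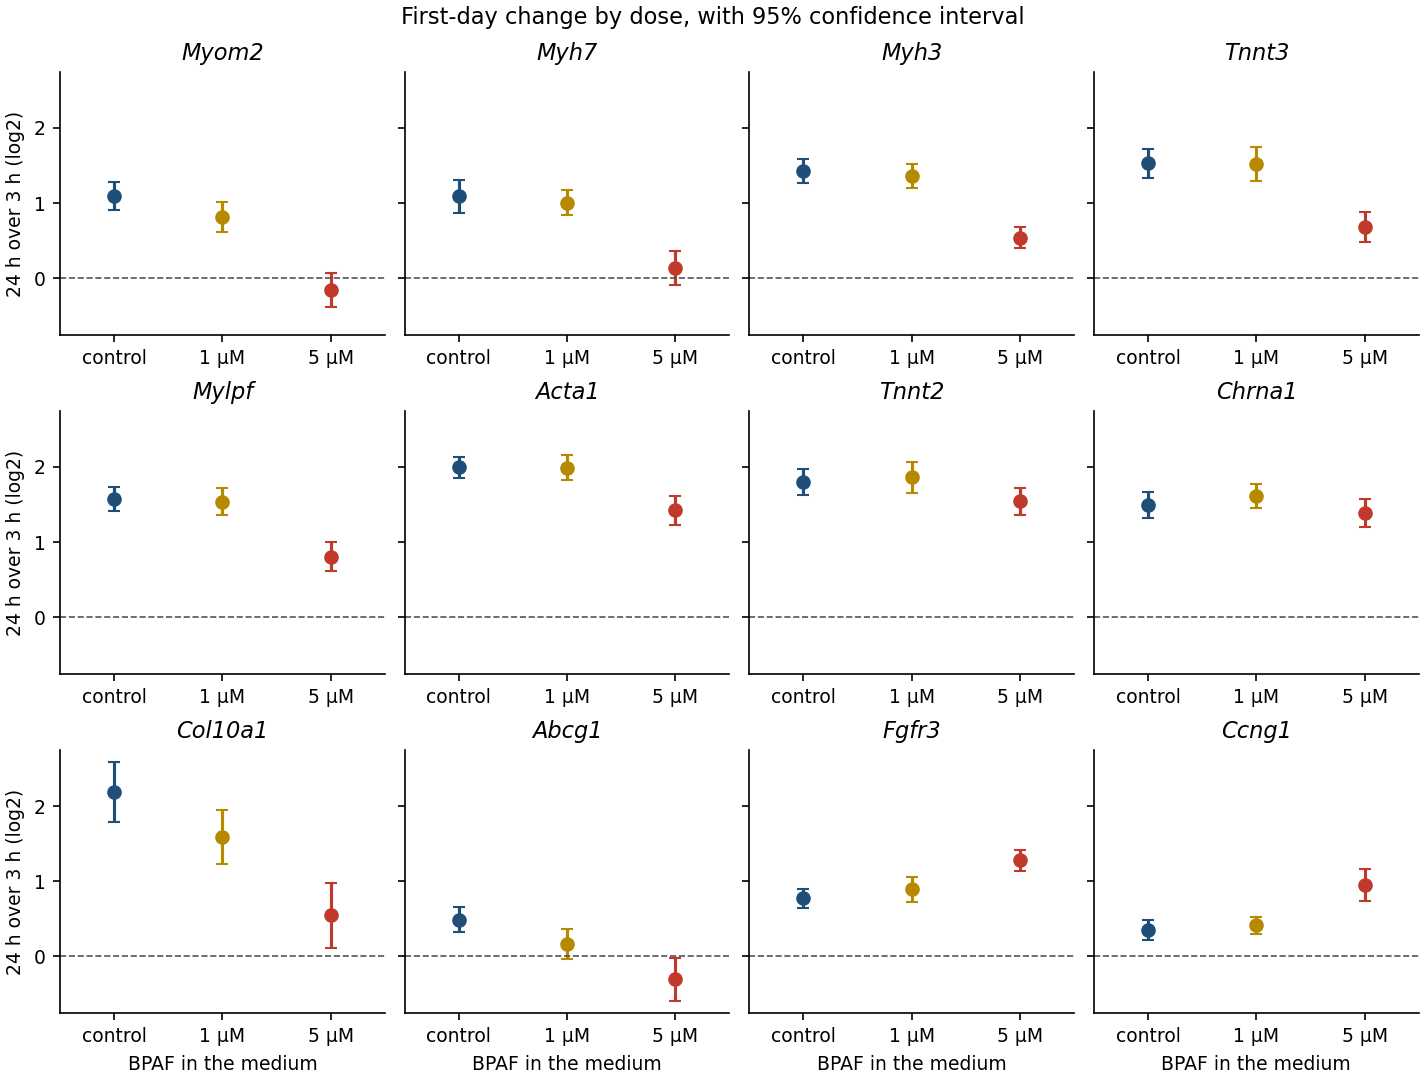
Log2 change (24 h over 3 h) in control, 1 µM and 5 µM limbs for 12 genes, with 95% confidence intervals from edgeR, 5 libraries per time. For Myh3 the changes are 1.43, 1.36 and 0.54, and for Tnnt2 1.79, 1.86 and 1.54, while Fgfr3 and Ccng1 run the other way.

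Markers of other cell types also moved over the exposed first day. Macrophage genes rose in 12 of 20 cases and fell in 4 (median 0.95), beside 14 higher and 1 lower of 19 in control limbs (median 1.18). Lyz2, the lysozyme of macrophages, had 31.6, 19.6, 22.3, 25.8 and 27.5 CPM at 24 h, against 4.97, 4.93, 2.48, 3.45 and 3.55 CPM at 3 h, without overlap between times, and its difference from control was not called (-0.75 ± 0.22, edgeR adjusted p = 0.204). The 4 that fell were Cd14 (-1.15), Pf4 (-0.98), Cx3cr1 (-0.60) and Mrc1 (-0.40), named after their values were seen. Endothelial genes fell in 16 of 21 cases and rose in 1 (median -0.68), beside 14 lower and 1 higher in control limbs (median -0.40). Plvap had 4.57, 6.39, 4.71, 7.59 and 8.06 CPM at 24 h, against 41.4, 37.4, 53.9, 47.1 and 49.5 CPM at 3 h, again without overlap (log2 change -2.87, beside -2.68 in control limbs). The VEGF receptor gene Flt1 fell by 1.03 ± 0.12 on the log2 scale in exposed and by 0.31 ± 0.10 in control limbs, a called difference (-0.71 ± 0.15, edgeR adjusted p = 0.0417) lost in 12 of 20 fits leaving out 1 library.

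Red cell genes fell in 8 of 11 cases in exposed limbs (median -0.98). Epidermal genes fell in 13 of 18 and rose in 3 (median -0.80). Schwann lineage genes fell in 7 of 11 and rose in 1 (median -0.56). In control limbs 10 of 11, 11 of 18 and 7 of 11 fell, while 4 epidermal genes and 1 Schwann lineage gene rose. Examples of the falls are the anion exchanger gene Slc4a1 (-2.07), the basal keratin gene Krt15 (-2.64) and the neural crest factor Sox10 (-1.54). Their changes in control limbs were -1.80, -2.42 and -1.26. The red cell genes not called in exposed limbs were the globin genes Hba-a1, Hba-a2 and Hbb-bs. Summed red cell levels in exposed limbs overlapped between times, at 1014 to 2557 CPM at 24 h and 1792 to 2518 CPM at 3 h. Haemoglobin genes made up 0.253% of reads in exposed replicate 5 at 24 h, and 0.101% to 0.157% in the other exposed 24 h replicates. Summed epidermal levels varied widely between libraries, from 236 to 755 CPM at 24 h and from 777 to 999.6 CPM at 3 h in exposed limbs. Of 12 smooth muscle and pericyte genes 4 were higher (33.33% called, beside 34.7% of all genes). Acta2, the smooth muscle actin gene that developing skeletal muscle also expresses, had 129, 145, 147, 137 and 191 CPM at 24 h in exposed limbs, against 136, 120.4, 131, 151 and 136 CPM at 3 h. Among control limbs it had 238, 290.1, 266, 298 and 249.5 CPM at 24 h, against 135, 128, 127, 149 and 118 CPM at 3 h. The exposed times overlapped, the control times did not, and the difference was -0.86 ± 0.13 (edgeR adjusted p = 0.00128).

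**Figure D4:**
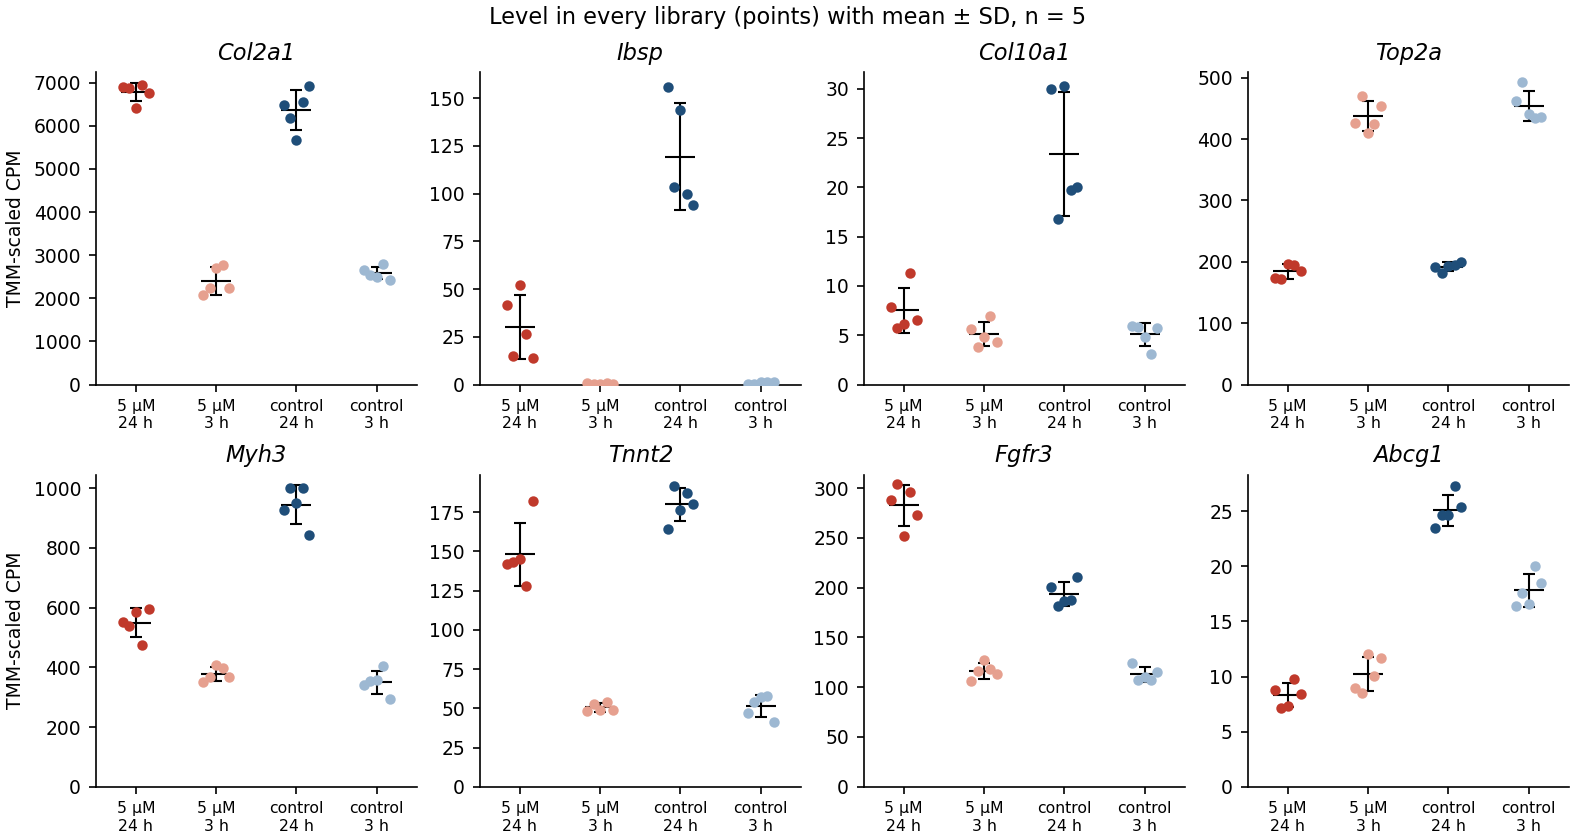
TMM-scaled CPM of 8 genes in each library of 5 µM limbs at 24 h and 3 h and of control limbs at 24 h and 3 h, with mean and SD of 5 libraries. Col2a1 rises and Top2a falls in both, Ibsp, Col10a1 and Myh3 end lower in exposed limbs, and Abcg1 is lower in exposed limbs at both times.

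Chaperone genes rose, genes of the amino acid response mostly fell, and p53 target genes changed in both directions. Chaperone and unfolded protein response genes rose in 13 of 20 cases (median 0.27, the same in control limbs), with the chaperone gene Hspa5 at 0.31. Their summed level in exposed limbs was 5857 to 6505 CPM at 3 h and 7132 to 7706 CPM at 24 h. Control limbs had 4848 to 5460 CPM at 3 h and 5896 to 6568 CPM at 24 h, lower at each time without overlap. Genes of the ATF4 amino acid response fell in 19 of 30 cases and rose in 2 (median -0.36), beside 22 lower in control limbs, with Atf3 at -1.70 in exposed and -1.84 in control limbs. Of 22 p53 target genes 10 were higher and 4 lower in exposed limbs, beside 4 higher and 6 lower in control limbs. The median difference was 0.22. EdgeR called 1 difference, with 10 at an unadjusted p under 0.05, while DESeq2 called 3 and limma-voom 1. Their summed level at 24 h was 1106 to 1320 CPM in exposed and 992 to 1050 CPM in control limbs, without overlap. At 3 h it was 1060 to 1099 CPM and 1064 to 1113 CPM, with overlap. Cdkn1a, the cell cycle inhibitor, rose in both (0.88 in exposed and 0.91 in control limbs). Ccng1, a cyclin G gene induced by p53, had 125, 124, 90.6, 99.1 and 84.0 CPM at 24 h in exposed limbs, against 54.4, 51.1, 59.2, 51.9 and 52.6 CPM at 3 h. The control limbs had 69.8, 65.4, 69.4, 76.99 and 73.9 CPM at 24 h, against 51.2, 58.1, 60.4, 50.3 and 56.8 CPM at 3 h. Exposed 24 h libraries all stood above control 24 h libraries, and the difference of 0.61 ± 0.12 was called (edgeR adjusted p = 0.0257) but lost in 12 of 20 fits leaving out 1 library.

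The liver X receptor list holds cholesterol exporters, lipid synthesis genes and the receptors themselves. Of its 13 genes 5 rose in exposed limbs and 9 in control limbs. Cholesterol synthesis genes rose in 6 of 24 and 15 of 24, beside 17.3% and 19.1% of all genes called higher. Of the differences between exposed and control limbs, edgeR, DESeq2 and limma-voom each called 1 of 13 in the liver X receptor list. At an unadjusted p under 0.05 edgeR gave 5 of the 13. Each tool called 0 of 24 cholesterol synthesis genes, of which 2 had an unadjusted p under 0.05 in edgeR. Abcg1, a cholesterol exporter, had 8.82, 7.13, 7.30, 9.77 and 8.44 CPM at 24 h in exposed limbs, against 8.97, 8.46, 12.0, 10.04 and 11.7 CPM at 3 h. In control limbs it had 23.5, 24.6, 24.6, 27.3 and 25.4 CPM at 24 h, against 16.4, 17.5, 16.6, 20.1 and 18.5 CPM at 3 h. Exposed libraries were below all control libraries already at 3 h. Abcg1 rose in control limbs (0.49 ± 0.08) and not by call in exposed limbs (-0.31 ± 0.13), and the difference was -0.78 ± 0.15 (edgeR adjusted p = 0.0136). Apoe, another gene of the liver X receptor list, rose in both (1.06 in exposed and 1.51 in control limbs).

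Of the 48 genes with a more negative change in exposed limbs, 44 had risen by call in control limbs. In exposed limbs 26 of these 44 rose by call, 5 fell by call and 13 were not called, counting a gene that was not tested there. At 1 µM, where that gene was not tested either, 40 of the 44 rose by call. The 1 µM change lay between those of 5 µM and control limbs for 35 and at or above control for 8. Because the 44 were picked by a low 5 µM and a high control change, these counts are no measure of a graded dose effect. Besides the 10 contractile genes, 38 others were among the 48. Many of these 38 are also muscle genes that the list does not hold, such as Myom2, Itga7 and Fgf6 above and others not printed here. The 38 further include Ddc, which encodes an amine-forming decarboxylase (-0.77 in exposed and 0.60 in control limbs). Tceal7, an elongation factor-like gene, is another (0.53 in exposed and 1.86 in control limbs). Of the 11 genes with a more positive change, 6 rose by call in both and 4 had fallen by call in control limbs. The gelatinase gene Mmp9 (2.14 in exposed and 1.54 in control limbs) and the tight junction gene Cldn11 (1.67 and 0.93) rose more in exposed limbs. The receptor gene Gpr17 fell less (-1.87 in exposed and -3.09 in control limbs).

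The tubulin gene Tubb5 had 1583, 1498, 1615, 1546 and 1877 CPM at 24 h in exposed limbs, against 2124, 1715, 1636, 1702 and 1856 CPM at 3 h. Control libraries had 1383, 1449, 1450.1, 1643 and 1597 CPM at 24 h, against 2259, 2203, 2231, 2302 and 2243 CPM at 3 h. The doses overlapped at 24 h and were apart at 3 h, where all exposed libraries were lower, and the difference in change was 0.44 ± 0.09 (edgeR adjusted p = 0.0334). Tubb4b changed by -0.34 in exposed and -0.77 in control limbs, also a called difference (0.44, edgeR adjusted p = 0.0418). Of the 30 called differences printed here, 17 were kept in each of 20 fits that left out 1 library and 13 were lost in at least 1. Without the libraries holding intestinal transcripts, 59 differences were called, of which 43 were among the first 59. The differences of Cldn11, Etv5, Fgf6, Flt1, Gpr17, Sall1 and Tubb4b were then no longer called (edgeR adjusted p = 0.0619 to 0.107), at log2 differences of 0.68, -0.44, -1.54, -0.68, 1.35, 0.47 and 0.44 in that order, close to those over all libraries. Among the more positive ones, Fgfr3 was kept in all 20, while Mmp9, Cldn11, Gpr17, Tubb5, Tubb4b, Sall1 and Ccng1 were lost in 6 to 18 of the 20. Reads from Y-linked genes made up 0.0174% ± 0.00731 of reads at 24 h and 0.0145% ± 0.00539 at 3 h in exposed limbs, against 0.0247% ± 0.00609 and 0.00803% ± 0.00552 in control limbs (SD, n = 5 each), and with that share as a covariate 35 differences were called, 33 of them among the first 59. Control replicate 3 at 3 h had a share of only 1e-05%, beside 0.00767% to 0.0156% in the other control 3 h libraries. Replicate 1 of 1 µM limbs at 3 h had 4.7e-05%. What cell numbers, sex or the intestinal transcripts contribute to the differences was not tested further. The tubulin genes, the actin genes and the neighbouring skeletal myosin heavy chain genes have near-identical copies, between which the authors' counting may divide reads, so their single values are uncertain to that extent.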

How the data were processed

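Poly-A RNA of 45 forelimb bud cultures was sequenced. The 9 deposited tables hold 1 pair of groups each, with the authors' raw counts of reads per gene and library, per the file headers. The 180 columns of normalized values and FPKM in those tables were not used here. CASAVA 1.8, STAR 2.5, HTSeq 0.6.1, DESeq2 and build mm10 are named in the submitters' processing notes, and their filters and strand setting are not given in the sources used here. Overlapping, antisense and near-identical genes may therefore share reads.

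Columns were joined by library code into 35272 genes, of which 35237 matched a symbol. A gene absent from a table was read as 0 counts, which applied to 11.7% of gene and library combinations. Counts were scaled by TMM, filtered with filterByExpr (minimum count 10, minimum total 15) and tested with edgeR 4.0.16 (quasi-likelihood F-test, two-sided, Benjamini-Hochberg over all genes tested, called under 0.05) in R 4.3.3. Each 24 h group was fitted with its own 3 h group, and the difference of the changes was fitted over 20 libraries. A change is a log2 fold change, 24 h over 3 h, with its standard error (SE). The ratio of exposed to control change used genes called on the average of both, with an averaged log2 change of at least 1 and at least 2 CPM. DESeq2 1.42.0, limma 3.58.1 (voom), other scaling, no filter, a replicate block, covariates and left-out libraries were alternatives. Leaving out the libraries with intestinal transcripts or with most haemoglobin, and the intestinal covariate, were chosen after seeing the data.

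The comparisons, the 30 gene lists and the motifs were chosen with earlier results of these data known, so list counts are descriptions. Named genes were 15 anchors of limb development, the 8 largest called rises and falls with at least 2 CPM, per list at most 4 called members, by smallest p, the 10 most negative and most positive called differences, and list members called there. Not every gene the rule allows is printed. One library labelled 1 µM at 3 h carries a characteristic naming another compound and dose. It was kept by its title and left out in turn.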

Additional observations from a re-analysis of the deposited data

Results flagged for a closer look

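In 15 of the 360 gene and group combinations printed or behind a printed change, 1 of the 5 libraries stood apart from the others by Dixon's criterion (gap over range above 0.71). Chance gives about 1 such library in 20 groups, and these 15 are no more than that. Among exposed limbs at 24 h, replicate 5 was high for Actc1 (774 CPM), replicate 1 was high for the collagenase gene Mmp13 (2.505 CPM), replicate 3 was high for Rrm1 (119.7 CPM) and replicate 4 was low for Tceal7 (3.63 CPM). In exposed limbs at 3 h, replicate 4 was high for Hhip (31.2 CPM) and Tnnt3 (37.3 CPM). In control limbs at 24 h, replicate 5 was high for Msx1 (71.2 CPM) and low for Sall1 (43.9 CPM), replicate 1 was high for Smpd3 (62.1 CPM), replicate 3 was low for Runx2 (52.4 CPM) and replicate 4 was low for Spry1 (43.5 CPM). In control limbs at 3 h, replicate 5 was low for Acta1 (122 CPM), replicate 2 was low for Col9a2 (375 CPM), replicate 3 was low for Msx1 (114 CPM) and replicate 4 was high for Cd14 (2.59 CPM).

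The first-day change differed between exposed and control limbs in the direct test for 30 genes named here, each given as the log2 change in exposed minus that in control limbs. Differences of contractile genes were Acta1 -0.56, Actc1 -0.64, Actn2 -0.69, Casq2 -0.68, Myh3 -0.88, Myh7 -0.94, Myh8 -0.69, Myl1 -0.66, Mylpf -0.76 and Tnnt3 -0.83. Other negative differences were Abcg1 -0.78, Acta2 -0.86, Atp1b4 -2.17, Col10a1 -1.63, Ddc -1.36, Etv5 -0.48, Fgf6 -1.65, Flt1 -0.71, Itga7 -1.19, Myom2 -1.24, Spry1 -0.59 and Tceal7 -1.32. The positive differences were Ccng1 0.61, Cldn11 0.75, Fgfr3 0.52, Gpr17 1.23, Mmp9 0.62, Sall1 0.45, Tubb4b 0.44 and Tubb5 0.44.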

How the results depend on the processing

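The 5769 genes called between 24 h and 3 h in exposed limbs were 5381 to 6623 under 9 other settings and 4988 to 6736 when 1 library was left out. The 59 called differences between exposed and control limbs became 161 with DESeq2, 35 with the share of Y-linked reads as a covariate and 133 without the 24 h libraries highest in haemoglobin, of which 57, 33 and 57 were among the 59. Leaving out 1 library gave 30 (exposed 24 h replicate 1) to 109 (exposed 24 h replicate 5) differences. It gave 37 and 35 without exposed 3 h replicates 3 and 4, 35 and 39 without control 24 h replicates 2 and 3, and 34 and 35 without control 3 h replicates 2 and 5. The 10 contractile genes with a smaller rise became 19 with DESeq2, 20 without the haemoglobin libraries, and 6 to 16 when 1 library was left out. Without the libraries holding intestinal transcripts 59 differences were called, 43 of them among the first 59. The cause of these shifts was not tested. Left-out libraries moved the cartilage count of 25 not at all, the G2/M count of 26 not at all, and gave 26 to 28 G1/S genes and 19 to 23 patterning genes. Changes that were not called reversed in sign for Itga7 in exposed limbs without the intestinal libraries (-0.0013) and for Sox9 in control limbs without 24 h replicate 4 (range over left-out libraries -0.026 to 0.0871). Of the single-gene values recomputed, 3020 kept their direction and side of the threshold, 204 lost their call and 17 gained one.

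Replicate numbers are not said to mark a shared batch. Same-numbered deviations correlated at -0.0485 to 0.0556 within exposed limbs. Over the 4 groups of the difference they correlated at -0.0753 to 0.2931, over 0.1 in 5 of 30 pairs, with a library's own number best in 17 of 30. Exposed and control 24 h libraries gave the values 0.0681, 0.2127, 0.1186, 0.0965 and 0.2931 for numbers 1 to 5. With a replicate block 5649 genes and 77 differences were called, 52 of these differences among the 59, and Gpr17, Mmp9 and Sall1 were not called (edgeR adjusted p = 0.0669, 0.0514 and 0.0556). Genes with few reads, such as Mmp13 at 3 h, are limited by depth.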
